A study of Mus musculus with 9 samples.

Results

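Gpha2 encodes the alpha subunit of thyrostimulin, and it is described here with 3 genes tied to it. Ppp2r5b lies beside it on the opposite strand, Gphb5 encodes the beta subunit of thyrostimulin, and Tshr encodes the receptor that thyrostimulin activates. Together they were 4 of the 22399 genes listed. Gpha2 was selected on its level in these same libraries, for being higher in both HFD and aged cells than in control cells, so its differences from control are given as a description without a test. The other genes were taken for their position or their role.

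RNA was sequenced from basal keratinocytes of mouse plantar skin, the cells on the basement membrane that renew the epidermis, sorted as CD49f positive and CD34 negative. All 9 libraries came from wild-type (WT) C57BL/6 mice, 3 per group: aged mice were 24 months old with no diet given, HFD mice were 5 months old and ate a high-fat diet, and control mice were 5 months old and ate a normal diet. Separate animals are not stated for the libraries of a group, so p-values here reflect only how much these samples vary, and part of that may be technical. Levels are the deposited FPKM, fragments per kilobase of gene and per M fragments, and each library held 23.5 to 35.8 M reads by an estimate from the value of a single read.

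Thyrostimulin is a heterodimeric glycoprotein hormone that activates the thyrotropin receptor, a receptor coupled to Gs and to cAMP production. Its chains are distinct from Cga, the alpha chain that thyrotropin and the gonadotropins share. Outside the endocrine tissues, Gpha2 is known as a marker of a quiescent stem cell compartment in the limbus, the border of the mouse cornea. Ppp2r5b encodes the beta member of the B56 family, regulatory subunits that direct the phosphatase PP2A to its substrates, among them AKT kinases.

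Gpha2 (ENSMUSG00000024784) spans chr19:6226380-6227768 on the plus strand of GRCm38, with 4 exons and a coding sequence of 128 codons. Ppp2r5b (ENSMUSG00000024777) spans chr19:6227765-6235872 on the minus strand, with 14 exons in its coding transcript and 497 codons. The genes meet tail to tail. Their exons share 4 bases, chr19:6227765-6227768, at the ends of both 3′ UTRs, which is 0.519% of the exonic bases of Gpha2 and 0.119% of those of Ppp2r5b. No other annotated gene lay over the exons of Gpha2. Of 713 stretches of 50 bases in the Gpha2 transcript, 0 occurred in a transcript of another gene, and for Ppp2r5b it was 0 of 2693. The library kit keeps strand, but the strand setting of the read counting is not given in the sources used here, so reads over the shared bases could have gone to either gene.

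**Figure D1:**
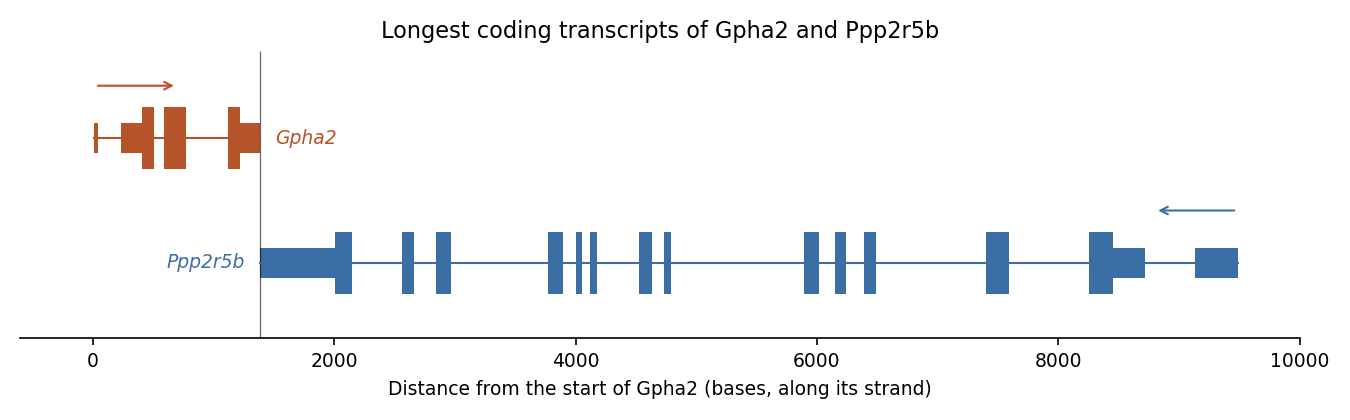
Exons of the longest coding transcripts of Gpha2 and Ppp2r5b against the distance from the start of Gpha2 in bases. Tall boxes are coding sequence, low boxes are UTRs, arrows give the direction of transcription, and the vertical line marks the 4 bases at which the exons of both genes overlap.

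The start sites of the neighbouring genes lie 9441 bases apart, at the outer ends of the pair. The 250 bases upstream of each RefSeq start (GRCm38.p6) are shown because the 2 genes differed in their levels across the groups while lying side by side. The Gpha2 sequence is chr19:6226151-6226400, plus strand, and the Ppp2r5b sequence is chr19:6235841-6236090, minus strand, both written 5′ to 3′ with motif matches in capitals.
Gpha2: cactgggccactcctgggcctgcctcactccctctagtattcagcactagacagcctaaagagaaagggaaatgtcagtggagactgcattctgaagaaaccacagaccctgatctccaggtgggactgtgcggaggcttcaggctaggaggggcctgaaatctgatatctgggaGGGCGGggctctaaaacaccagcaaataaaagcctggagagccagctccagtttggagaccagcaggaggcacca
Ppp2r5b: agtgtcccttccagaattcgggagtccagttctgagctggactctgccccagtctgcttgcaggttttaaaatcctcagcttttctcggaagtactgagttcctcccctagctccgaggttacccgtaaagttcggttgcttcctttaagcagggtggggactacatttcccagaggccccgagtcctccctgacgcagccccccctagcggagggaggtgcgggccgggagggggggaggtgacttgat
The 6 motifs were searched on both strands, where N is any base. The GC box GGGCGG matched at 1 place upstream of Gpha2 and nowhere upstream of Ppp2r5b, and 32.7% of 32851 RefSeq promoters held it in the same window. The TATA box TATAAA, the CCAAT box CCAAT, the E box CACGTG, the AP-1 site TGANTCA and the CRE TGACGTCA matched neither sequence, and 12.4%, 33.8%, 6.02%, 6.75% and 1.55% of promoters held them, in that order. No match says only that these letters are absent from this window. The Gpha2 sequence had 2 CpG dinucleotides, and 18.8% of promoters had fewer. The Ppp2r5b sequence had 10 CpG dinucleotides, and 62.2% of promoters had fewer, around a median of 6. GC content was 55.2% upstream of Gpha2 and 58.4% upstream of Ppp2r5b.

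Gpha2 stood highest in aged cells, lower in HFD cells and lowest in control cells. Its level was 12.8, 9.97 and 13.3 FPKM in the aged libraries 1 to 3, 6.10, 3.93 and 3.67 FPKM in the HFD libraries, and 1.48, 1.08 and 0.624 FPKM in the control libraries. Each pair of groups was without overlap: the lowest aged library was 1.63 times the highest HFD library, and the lowest HFD library 2.48 times the highest control library. The means were 12.0 ± 1.78 FPKM in aged, 4.57 ± 1.34 FPKM in HFD and 1.06 ± 0.427 FPKM in control cells (SD, n = 3 each). The mean in aged cells was 11.3 times, and that in HFD cells 4.31 times, the mean in control cells.

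These values rest on few reads in control cells. By the value of a single read they came from 327, 244 and 313 reads in aged, 167, 82 and 73 in HFD and 37, 20 and 15 in control libraries. For the lowest control library, the exact 95% Poisson interval of 15 reads was 8.4 to 24.7, and for the lowest HFD library that of 73 reads was 57.2 to 91.8, which covers counting error only. Among all genes listed, the mean of Gpha2 was above 81.5% in aged, 66.8% in HFD and 54.2% in control cells.

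**Figure D2:**
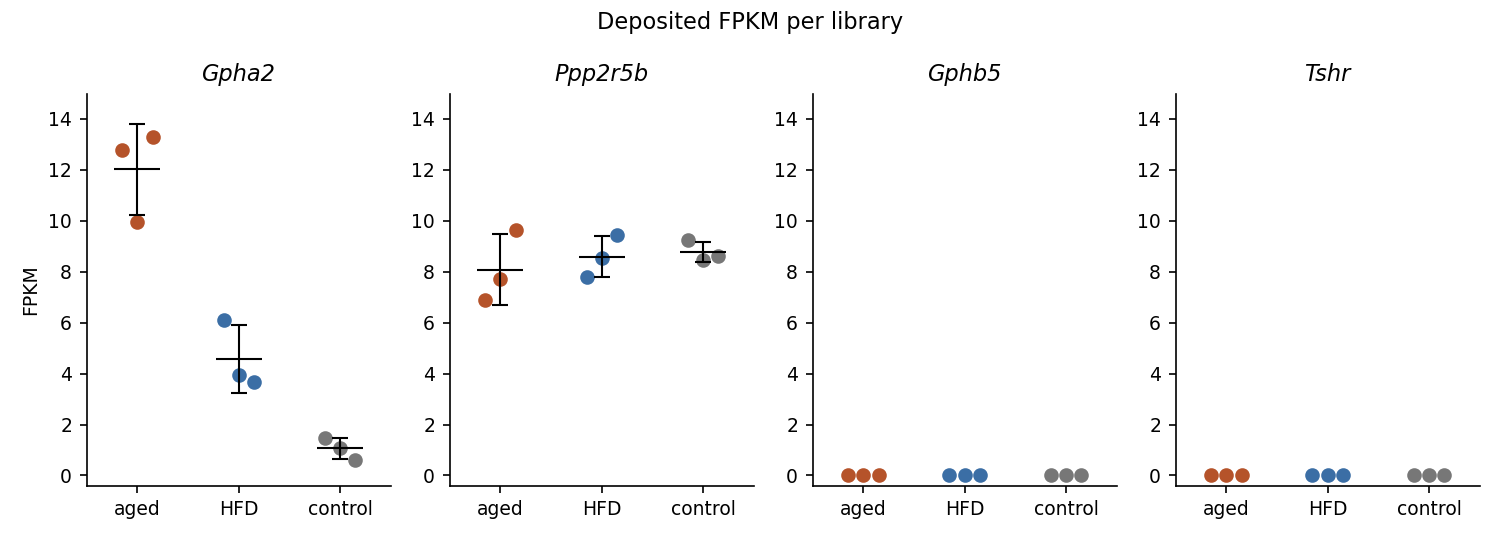
FPKM of Gpha2, Ppp2r5b, Gphb5 and Tshr in each of 9 libraries (points), by group. Bars give the mean and SD over 3 libraries for Gpha2 and Ppp2r5b. Gpha2 lies at 9.97 FPKM or more in aged, between 3.67 and 6.10 in HFD and at 1.48 or less in control libraries, the groups of Ppp2r5b overlap, and Gphb5 and Tshr are listed at 0 throughout.

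On the scale of log2(FPKM + 1), which understates the change of low genes, the difference in Gpha2 was 2.67 ± 0.18 (SE) for aged minus control and 1.43 ± 0.18 for HFD minus control. The difference for aged minus control was the highest but 2, at rank 3, and that for HFD minus control was at rank 9, of the 10367 genes tested, those averaging 1 FPKM or more over all libraries. These comparisons share their control libraries. By the smaller of both differences Gpha2 was at rank 4, behind Fbp2 (2.68), Dbp (1.61) and Vsnl1 (1.46). These ranks describe how the gene was selected and carry no test.

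Aged cells were then set against HFD cells. This difference did not itself select Gpha2, but it draws on the aged and HFD levels that did. Its p is therefore not independent of the selection. Gpha2 rose in aged cells by 1.24 ± 0.18, with a 95% interval of 0.84 to 1.64 (limma, Benjamini-Hochberg adjusted p = 0.00316 over all genes tested). Over 19 other settings of the processing the difference was between 1.13 and 1.43, with an adjusted p between 0.00107 and 0.0264. Without aged replicate 3, whose loss took the number of genes called in aged against control to 1254, against 804 with all libraries, it was 1.17 (adjusted p = 0.00940). Without aged replicate 1, whose loss took that number to 304, it was 1.19 (adjusted p = 0.0148). Of the 10367 genes tested, 7.99% were called at an adjusted p under 0.05 in aged against HFD, 3.54% higher and 4.45% lower, and Gpha2 was at rank 16 of the differences. As these are sorted cells in bulk, more cells with the transcript and more transcript per cell cannot be told apart.

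**Figure D3:**
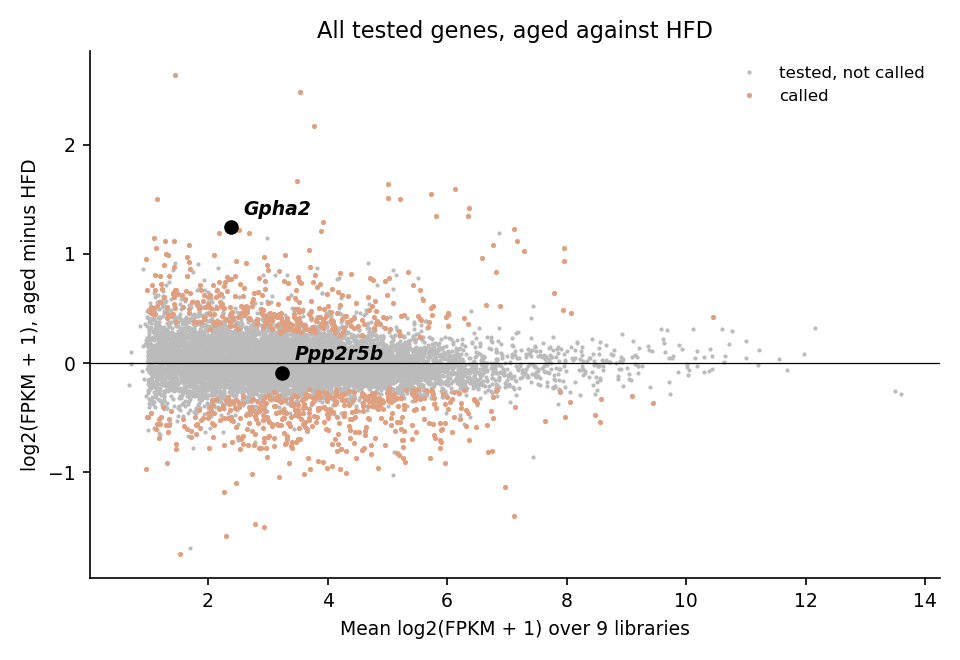
Difference in log2(FPKM + 1), aged minus HFD, against the mean log2(FPKM + 1) over 9 libraries, for the 10367 genes tested. Coloured points are genes called at an adjusted p under 0.05. Gpha2 lies at 1.24 and Ppp2r5b at -0.09.

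Markers of other cells also differed between the groups, and their part in the Gpha2 levels was not tested. The summed level of 10 hair follicle and sebaceous genes was 204 to 232 FPKM in aged, 88.3 to 118 FPKM in HFD and 82.2 to 149 FPKM in control libraries, so aged libraries lay above both other groups and HFD libraries overlapped control. Krt79, Scd1 and Mgst1 made up most of each sum, and 5 of the 10 genes stayed under 1 FPKM in every library. Of 5 tested, 3 rose in aged against HFD, 2 rose in aged against control and 0 were called in HFD against control by limma, where 1 had an unadjusted p under 0.05. Over all genes tested 7.99%, 7.76% and 17.0% were called, in that order, and whether this list differs from these shares was not tested. Mgst1, a glutathione transferase, rose in aged against HFD (0.75 ± 0.11, limma adjusted p = 0.00329) and in aged against control (0.62 ± 0.11, adjusted p = 0.00912), both in all 19 other settings. Krt79, a keratin of the follicle infundibulum and sebaceous duct, rose in aged against HFD (1.54 ± 0.35, adjusted p = 0.0237), which was lost without HFD replicate 3 or aged replicate 1, with no filter and with the robust setting, at 1.28 to 1.54. Scd1, a lipid desaturase, rose in aged against HFD (0.71 ± 0.14, adjusted p = 0.0128), which was lost without HFD replicate 2 or 3 and with no filter, at 0.65 to 0.71. Sox9, a follicle transcription factor, rose in aged against control (0.64 ± 0.14, adjusted p = 0.0226), which was lost without control replicate 2 or 3 or aged replicate 2 and with no filter, at 0.46 to 0.67. Lhx2 averaged 1.91 FPKM in aged, 1.27 in HFD and 1.41 in control cells and was not called. The sebaceous wax synthase Awat2 was at most 0.995 FPKM in any library, averaging 0.503 in aged, 0.617 in HFD and 0.633 in control cells. In the same order Krt75 averaged 0.0782, 0.0937 and 0.1 FPKM, Krt71 0.173, 0.229 and 0.0604, and Krt25 0.359, 0.0301 and 0.0139. Cd34, whose protein the sort selected against, was at most 0.0671 FPKM, averaging 0.0563, 0.0279 and 0.00146.

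The summed level of sweat gland genes was highest in HFD cells, through Ehf, Acta2 and Slc12a2. The sum of 10 was 27.3 to 31.0 FPKM in aged, 42.8 to 51.9 FPKM in HFD and 26.2 to 28.3 FPKM in control libraries, with 6 of the 10 under 1 FPKM throughout and 2 of these, Foxa1 and Foxi1, at 0. Krt8, Krt18, Krt19, Krt7 and Aqp5 averaged lower in HFD than in control cells, with overlapping ranges. Their means were 0.0269, 0.215, 0.0752, 0.393 and 0.586 FPKM in HFD and 0.147, 0.371, 0.151, 0.622 and 0.957 FPKM in control cells. Of the 10 genes 3 were tested, and 3 rose in HFD against control, 1 rose in aged against control, and 2 fell in aged against HFD. Among all genes tested 17.0%, 7.76% and 7.99% were called, in that order. Ehf, an epithelial ETS factor, differed by 1.57 ± 0.23 in HFD against control (limma adjusted p = 0.00236) and by -1.58 ± 0.23 in aged against HFD (adjusted p = 0.00315). Acta2, an actin that myoepithelial cells contract with, differed by 1.11 ± 0.20 in HFD against control (adjusted p = 0.00562) and by -1.5 ± 0.20 in aged against HFD (adjusted p = 0.00233). Slc12a2, an ion cotransporter, rose in HFD against control (0.45 ± 0.07, adjusted p = 0.00236) and in aged against control (0.31 ± 0.07, adjusted p = 0.0197). The aged call was lost without control replicate 2 or 3 or aged replicate 1, at 0.29 to 0.31, and the other calls of these genes held in all 19 other settings.

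Among fibroblast genes, Dcn, a matrix proteoglycan and the member tested of 6, was at 3.78 ± 0.576 FPKM in aged, 2.03 ± 0.531 FPKM in HFD and 5.22 ± 1.09 FPKM in control cells. It fell in HFD against control (-1.04 ± 0.16, limma adjusted p = 0.00239), in all 19 other settings. In aged against HFD it rose (0.67 ± 0.16, adjusted p = 0.0248), which was lost without HFD replicate 3 or aged replicate 1 or 2 and with no filter, at 0.51 to 0.71. The other 5 fibroblast genes were near 0 in every library. Col1a1, Col1a2, Col3a1 and Pdgfra reached at most 0.176, 0.0412, 0.0501 and 0.0337 FPKM, and Lum was at 0. Col1a1 did not follow Dcn, averaging 0.0226 FPKM in aged, 0.0968 in HFD and 0.058 in control cells. Of 5 Merkel cell genes 0 were tested, and their sum was 0.640 to 1.27 FPKM in aged, 0.639 to 1.15 FPKM in HFD and 0.1 to 0.136 FPKM in control libraries. That sum was nearly all Isl1, while the defining Merkel genes Krt20 and Chga were at 0 and Atoh1 at most 0.0297 FPKM. Of 8 suprabasal genes, all tested, 1 rose in aged against control and 0 were called in the other comparisons. It was Krt1 (0.61 ± 0.13, adjusted p = 0.0198), lost without control replicate 1 or 3 or aged replicate 1 or 2 and with no filter, at 0.47 to 0.63. Markers of basal keratinocytes were high throughout, with Krt14 at 11400 ± 159 FPKM in aged, 13900 ± 884 in HFD and 12100 ± 1780 in control cells. Of 7 such markers, all tested, 1 was called, which was Itga6, whose protein CD49f the sort selected for. It was at 124 ± 8.1 FPKM in aged, 164 ± 3.61 in HFD and 134 ± 3.74 in control cells. Itga6 rose in HFD against control (0.29 ± 0.07, limma adjusted p = 0.0168) and fell in aged against HFD (-0.40 ± 0.07, adjusted p = 0.00575). Over all genes tested, 7.76% were called in aged against control, 17.0% in HFD against control and 7.99% in aged against HFD.

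Ppp2r5b did not show the order of groups seen in Gpha2. Its level was 6.91, 7.70 and 9.64 FPKM in the aged libraries, 7.81, 8.55 and 9.43 FPKM in the HFD libraries and 9.23, 8.47 and 8.63 FPKM in the control libraries. The 3 groups overlapped, with the lowest library and the highest library both from aged cells. The means were 8.08 ± 1.41 FPKM in aged, 8.59 ± 0.808 in HFD and 8.78 ± 0.400 in control cells, and no neighbours in this order differed beyond their spread. The smallest number of reads behind a value was 689, with an exact 95% Poisson interval of 639 to 742.

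Ppp2r5b was not called in any comparison. The difference in log2(FPKM + 1) was -0.12 ± 0.11 for aged against control, with a 95% interval of -0.35 to 0.12 (limma adjusted p = 0.527). For HFD against control it was -0.03 ± 0.11, with an interval of -0.27 to 0.21 (adjusted p = 0.875). For aged against HFD it was -0.09 ± 0.11, with an interval of -0.32 to 0.15 (adjusted p = 0.669). These intervals leave room for FPKM + 1 of Ppp2r5b to lie between 0.782 and 1.09 times the control value in aged cells, and between 0.831 and 1.15 times in HFD cells. By comparison, 7.76% of all genes tested were called in aged against control, 4.01% higher and 3.74% lower, and 17.0% in HFD against control, 8.26% higher and 8.76% lower.

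The levels of the neighbouring genes were set against each other within each library. The ratio of Gpha2 to Ppp2r5b, both per kilobase of gene, was 1.85, 1.3 and 1.37 in aged libraries, 0.781, 0.460 and 0.389 in HFD libraries and 0.160, 0.127 and 0.0723 in control libraries. Gpha2 was above Ppp2r5b in each aged library and below it in each HFD and control library. Over the 9 libraries, which fall into the 3 groups that selected Gpha2, Pearson's r between the genes on the log scale was -0.37. The GC content of the longest transcript was 57.2% for Gpha2 and 59.0% for Ppp2r5b.

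Within 100 kb lay 7 further protein-coding genes, of which 5 were tested and 0 were called in any comparison by limma, where 7.76% of all genes tested were called in aged against control, 17.0% in HFD against control and 7.99% in aged against HFD. At an unadjusted p under 0.05 there were 2 of the 5 in HFD against control and 0 in both comparisons of aged cells. Majin, 2155 bases upstream and the closest gene on that side, a meiotic telomere protein, did not exceed 0.211 FPKM in any library. Atg2a, a lipid transfer protein of autophagy 13900 bases away, averaged 7.09 ± 1.09 FPKM in aged, 6.05 ± 0.758 in HFD and 7.56 ± 0.294 in control cells. Its difference from control, -0.29 ± 0.11 in HFD cells, was larger in size than any other of these 5 genes and missed the threshold (adjusted p = 0.0892). Ehd1, Snx15, Arl2 and Cdc42bpg had differences between -0.24 and 0.16 across the 3 comparisons. Batf2 did not exceed 0.0508 FPKM.

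**Figure D4:**
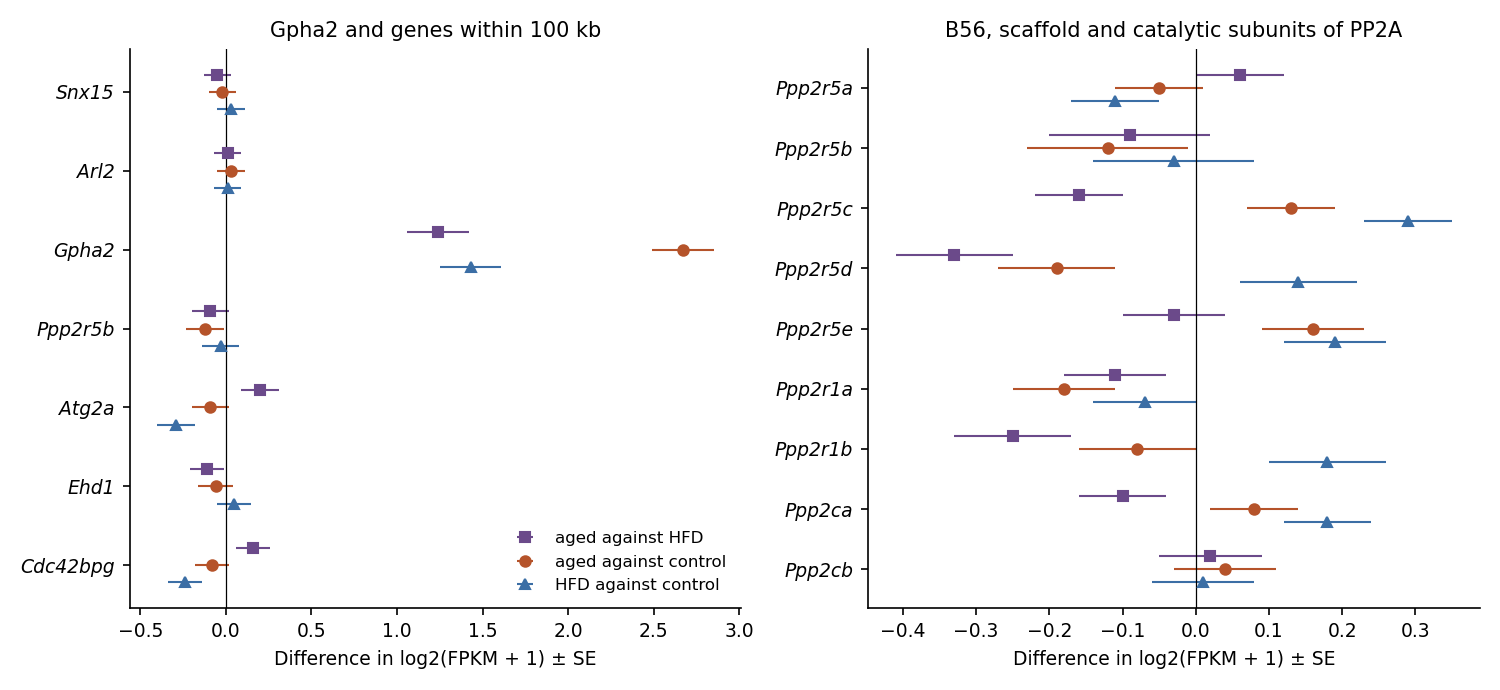
Differences in log2(FPKM + 1) ± SE for aged against HFD (squares), aged against control (circles) and HFD against control (triangles). The left panel holds Gpha2, Ppp2r5b and the 5 tested genes within 100 kb in the order of their positions, and the right panel the B56, scaffold and catalytic subunits of PP2A on a narrower axis. Gpha2 lies at 1.24, 2.67 and 1.43, apart from its neighbours.

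The partner subunit and the receptor had no level above 0 in the table. Gphb5 (ENSMUSG00000048982, chr12:75411722-75416781, minus strand) and Tshr (ENSMUSG00000020963, chr12:91384563-91549808, plus strand) were listed at 0 in all 9 libraries. At these depths 3 reads would have given 0.0524 to 0.0772 FPKM for Gphb5 and 0.0140 to 0.0207 FPKM for Tshr. In all, 6691 of the genes listed were at 0 throughout, and 4 of 13 mitochondrial genes, which cells use widely, were among them, so a listed 0 can also be a value that was not obtained. Cga, the hormone beta chains Tshb, Fshb and Lhb, and the gonadotropin receptors Fshr and Lhcgr were also listed at 0 in all 9 libraries. Of this family of 9 hormone chains and receptors, Gpha2 was the only member above 0. Of 9 other marker genes of thyroid and pituitary, 6 were at 0 and the sum did not exceed 0.085 FPKM in any library.

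Among 5 receptors related to Tshr by their leucine-rich repeats, Lgr4 and Lgr6 averaged 1 FPKM or more and were tested. Lgr6, a receptor for R-spondins found in epidermal stem cells, fell in both groups against control: it averaged 11.5 ± 1.78 FPKM in aged, 12.1 ± 1.04 in HFD and 17.0 ± 2.65 in control cells. The differences were -0.52 ± 0.13 for aged against control (limma adjusted p = 0.0314) and -0.45 ± 0.13 for HFD against control (adjusted p = 0.0336). The aged call was lost when control replicate 1 or 3 or aged replicate 2 or 3 was left out, and also with no filter on low values and with only the 6 libraries compared, at differences of -0.53 to -0.41. The HFD call was lost when control replicate 1 or 3 or any HFD replicate was left out, with no filter and with a GC correction, at -0.50 to -0.37. Lgr4, also an R-spondin receptor, averaged 12.0 ± 0.902 FPKM in aged, 11.8 ± 1.22 in HFD and 12.9 ± 0.903 in control cells and was not called. Lgr5 stayed at or under 0.544 FPKM and was not tested. It averaged 0.392 ± 0.135 FPKM in aged, 0.274 ± 0.0408 in HFD and 0.149 ± 0.0623 in control cells, so its direction was opposite to that of Lgr6. The relaxin receptors Rxfp1 and Rxfp2 stayed at or under 0.0204 FPKM.

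Genes of the Gs and cAMP pathway, downstream of the thyrotropin receptor in endocrine cells, were counted next. Of 43 such genes 25 were tested. In aged against control 1 rose and 0 fell, in HFD against control 0 rose and 1 fell, and in aged against HFD 0 were called by limma, where 8 had an unadjusted p under 0.05. Over all genes tested 7.76%, 17.0% and 7.99% were called in that order, and whether the pathway differs from these shares was not tested. The median differences were -0.03, -0.04 and -0.03 in that order, against -0.01, 0.01 and -0.00 over all genes tested. Rapgef3, a cAMP-activated exchange factor for RAP, averaged 2.56 ± 0.532 FPKM in aged and 1.3 ± 0.248 in control cells (0.62 ± 0.13, adjusted p = 0.0187), which was lost when control replicate 2 or aged replicate 1 or 2 was left out, at 0.51 to 0.62. Arrb1, a beta-arrestin that uncouples receptors, averaged 5.47 ± 0.493 FPKM in HFD and 7.46 ± 0.841 in control cells (-0.38 ± 0.09, adjusted p = 0.0201), which was lost when control replicate 2 or 3 or HFD replicate 2 was left out, at -0.37 to -0.32. Gnas, the Gs alpha chain, averaged 31.4 ± 0.453 FPKM in aged, 35.7 ± 0.954 in HFD and 31.8 ± 1.48 in control cells, with no call.

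Of 16 genes of thyroid hormone response, 11 were tested. In aged against control 1 fell, in HFD against control 2 fell and in aged against HFD 0 were called by limma, where 2 had an unadjusted p under 0.05. There was no rise in any comparison. Over all genes tested 4.01%, 8.26% and 3.54% rose and 3.74%, 8.76% and 4.45% fell, in that order. Whether this list differs from these shares was not tested. The median differences were -0.20, -0.19 and 0.07 in that order, against -0.01, 0.01 and -0.00 over all genes tested. Hr, a corepressor that thyroid hormone regulates in brain, averaged 76.9 ± 9.17 FPKM in aged, 82.5 ± 5.24 in HFD and 107 ± 6.55 in control cells. Its differences were -0.47 ± 0.09 for aged against control (limma adjusted p = 0.0130) and -0.37 ± 0.09 for HFD against control (adjusted p = 0.0208). The aged call was lost when control replicate 3 or aged replicate 1 was left out, both at -0.43. The HFD call was lost when control replicate 2 or 3 or HFD replicate 1 was left out and with a GC correction, at -0.36 to -0.13. The receptors Thra and Thrb were not called.

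The B56 family of PP2A, to which Ppp2r5b belongs, had 5 of 5 members above 1 FPKM. Ppp2r5d and Ppp2r5c had the highest levels per kilobase and Ppp2r5b the lowest in each group. Ppp2r5d averaged 29.8 ± 2.23 FPKM in aged, 37.6 ± 0.721 in HFD and 34.2 ± 2.97 in control cells. In HFD against control 1 member rose and 0 fell. This was Ppp2r5c, at 33.9 ± 0.654 FPKM in HFD and 27.6 ± 0.494 in control cells (0.29 ± 0.06, limma adjusted p = 0.0116), which held in all 19 other settings. In aged against HFD 0 rose and 1 fell, which was Ppp2r5d (-0.33 ± 0.08, adjusted p = 0.0294). That call was lost when any HFD replicate or aged replicate 1 or 2 was left out and with no filter on low values, at -0.35 to -0.27. In aged against control 0 were called by limma, where 2 had an unadjusted p under 0.05. Among all genes tested 17.0% were called in HFD against control, 7.99% in aged against HFD and 7.76% in aged against control. The median differences of the family were -0.05 for aged against control, 0.14 for HFD against control and -0.09 for aged against HFD. Ppp2r5a and Ppp2r5e averaged between 10.1 and 16.7 FPKM with no call.

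The PP2A scaffold subunits Ppp2r1a and Ppp2r1b and the catalytic subunits Ppp2ca and Ppp2cb were tested and 0 of 4 were called in any comparison by limma, the smallest adjusted p being 0.0710, for Ppp2ca in HFD against control. At an unadjusted p under 0.05 there was 1 in aged against control, 2 in HFD against control and 1 in aged against HFD. Of 10 other regulatory subunits 9 were tested, with 2 rises and 0 falls in aged against control, 3 rises and 2 falls in HFD against control and 0 calls in aged against HFD, where 1 had an unadjusted p under 0.05. Their median differences were 0.18, 0.07 and 0.02 in that order. Over all genes tested 7.76%, 17.0% and 7.99% were called, in the same order, and whether this list differs from these shares was not tested. Ppp2r2c, a B55 subunit best known in brain, rose in both groups, to 14.2 ± 2.59 FPKM in aged and 14.3 ± 1.65 FPKM in HFD, against 7.52 ± 0.750 FPKM in control cells. Its differences were 0.83 ± 0.12 for aged against control (adjusted p = 0.00343) and 0.84 ± 0.12 for HFD against control (adjusted p = 0.00228), and both calls held in all 19 other settings. Ppp2r2a, another B55 subunit, rose by 0.38 ± 0.07 in HFD against control (adjusted p = 0.00740), also in all 19 settings.

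The other calls in this group were less stable. Ppp2r3a rose by 0.32 ± 0.07 in aged against control (limma adjusted p = 0.0194) and by 0.24 ± 0.07 in HFD against control (adjusted p = 0.0376). The aged call was lost when control replicate 2 or 3 or aged replicate 1 or 2 was left out and with the replicate block and GC correction, at 0.25 to 0.33. The HFD call was lost when any control or HFD replicate was left out, with total FPKM scaling and with a GC correction, at 0.11 to 0.27. Ppp2r3d (-0.59 ± 0.16, adjusted p = 0.0297) and the striatin Strn4 (-0.31 ± 0.09, adjusted p = 0.0354) fell in HFD against control. The Ppp2r3d call was lost when control replicate 2 or 3 or any HFD replicate was left out, at -0.62 to -0.49, and the Strn4 call when any control or HFD replicate was left out or with a GC correction, at -0.35 to -0.25. Both were lost with no filter on low values.

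Of 12 inhibitors and assembly factors of PP2A, all tested, 4 rose and 0 fell in HFD against control, 0 were called by limma in aged against control, where 3 had an unadjusted p under 0.05, and 0 rose and 2 fell in aged against HFD. Their median differences were 0.16, -0.01 and -0.13 in that order. Over all genes tested 17.0%, 7.76% and 7.99% were called, in the same order, and whether this list differs from these shares was not tested. Cip2a, an inhibitor that binds B56 complexes and is high in proliferating cells, was at 20.6 ± 1.38 FPKM in HFD, against 10.9 ± 0.824 in control cells (0.87 ± 0.08, limma adjusted p = 7.8e-04). In aged cells it was at 10.6 ± 0.659 FPKM, lower than in HFD cells (-0.89 ± 0.08, adjusted p = 6.2e-04). Both calls held in all 19 other settings. Anp32a (0.33 ± 0.10, adjusted p = 0.0433), Anp32e (0.25 ± 0.06, adjusted p = 0.0248) and Tiprl (0.29 ± 0.08, adjusted p = 0.0281) rose in HFD against control, and Anp32e fell in aged against HFD (-0.25 ± 0.06, adjusted p = 0.0381). These 4 calls were lost in 7 to 11 of 19 other settings, a GC correction among them, and each when HFD replicate 1 or 2 was left out. The Anp32a call was also lost without HFD replicate 3, control replicate 1 or 2 or aged replicate 1, the Tiprl call without HFD replicate 3 or control replicate 2, and the Anp32e call against control without control replicate 1 or 2. The Anp32e call in aged against HFD was lost without HFD replicate 3, control replicate 1 or any aged replicate. The differences where they were lost were 0.28 to 0.38 for Anp32a, 0.15 to 0.25 for Anp32e and 0.18 to 0.31 for Tiprl in HFD against control, and -0.27 to -0.16 for Anp32e in aged against HFD.

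Of the AKT and PIM kinases, 5 of 6 were tested. Akt1, which B56 beta complexes dephosphorylate, averaged 62.1 ± 4.43 FPKM in aged, 63.8 ± 4.06 in HFD and 77.4 ± 8.01 in control cells, with an adjusted p of 0.0542 for aged against control and of 0.0556 for HFD against control (limma). Pim3, a kinase that promotes survival, was at 29.8 ± 4.14 FPKM in aged, 20.6 ± 3.24 in HFD and 29.0 ± 5.04 in control cells. It fell in HFD against control (-0.47 ± 0.14, adjusted p = 0.0438) and rose in aged against HFD (0.52 ± 0.14, adjusted p = 0.0491). The call against control was lost in 8 of 19 other settings, among them a GC correction and leaving out control replicate 2 or 3, HFD replicate 1 or 2 or aged replicate 1, at -0.51 to -0.23. The call in aged against HFD was lost in 13, among them a pseudocount of 0.1 and leaving out control replicate 3, any HFD replicate or aged replicate 1 or 3, at 0.39 to 0.61. Akt2, Pim1 and Pim2 were not called. Among all genes tested 17.0% were called in HFD against control and 7.99% in aged against HFD.

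Of the 6 other genes listed as markers of the limbal compartment, all tested, 2 rose in aged against control and in aged against HFD, 1 rose in HFD against control, and 0 fell. Over all genes tested 7.76%, 7.99% and 17.0% were called, in that order, and whether this list differs from these shares was not tested. Atf3, a transcription factor that stress and cell dissociation also induce, was at 179 ± 18.6 FPKM in aged, 61.1 ± 20.3 in HFD and 32.2 ± 9.81 in control cells. It rose in aged against control (2.47 ± 0.24, limma adjusted p = 4.0e-04) and in aged against HFD (1.59 ± 0.24, adjusted p = 0.00350), and both calls held in all 19 other settings. It rose in HFD against control as well (0.88 ± 0.24, adjusted p = 0.0300), which was lost when control replicate 1 or 3 or HFD replicate 1 or 3 was left out, with no filter, with library weights and with the robust setting, at 0.66 to 0.88. Socs3, a feedback inhibitor of cytokine signalling, rose to 39.4 ± 8.66 FPKM in aged, against 22.8 ± 5.21 in HFD cells (0.76 ± 0.17, adjusted p = 0.0234) and 20.5 ± 2.21 in control cells (0.89 ± 0.17, adjusted p = 0.0140). The call against HFD was lost when HFD replicate 1 or 2 or aged replicate 2 or 3 was left out, at 0.60 to 0.76, and that against control when control replicate 2 or aged replicate 2 was left out, at 0.77 to 0.89. Both were lost with no filter on low values.

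The other 4, Krt15, Ifitm3, Cd63 and Mt1, were expressed and not called in any comparison. Krt15, a keratin of basal and limbal stem cells, averaged 813 ± 103 FPKM in aged, 695 ± 56 in HFD and 858 ± 100 FPKM in control cells. Corneal markers were mostly low: Pax6, the eye field regulator, was at most 0.134 FPKM. Krt12, the corneal keratin, averaged 3.59 ± 0.456 FPKM in aged, 3.85 ± 1.27 in HFD and 2.63 ± 0.202 in control cells with no call. Aldh3a1, an aldehyde dehydrogenase abundant in the cornea, was at 310 ± 45.9 FPKM in aged, 220 ± 19.4 in HFD and 219 ± 38.3 in control cells. It rose in aged against HFD (0.49 ± 0.13, limma adjusted p = 0.0442) and in aged against control (0.50 ± 0.13, adjusted p = 0.0396). Each call was lost in 9 of 19 other settings, no filter and quantile normalization among them. The call against HFD was lost without control replicate 3, any HFD replicate or aged replicate 1 or 3, at 0.37 to 0.55, and that against control without control replicate 2 or 3, HFD replicate 2 or aged replicate 1 or 3, at 0.39 to 0.53.

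The genes whose profiles were most like that of Gpha2 were ranked by Pearson's r of log2(FPKM + 1) over the 9 libraries, among 10196 genes with a name that is not a predicted model. These were Cdkn2a (0.976), Phf3 (0.970), Pdk1 (0.969), Agmo (0.968), Mcam (0.967), Apoc1 (0.967), Plk2 (0.965) and Reep5 (0.964). The libraries fall into 3 groups that differ in Gpha2, so r describes mainly the group levels. Cdkn2a, the p16 and p19ARF locus, was at 3.06, 3.30 and 3.87 FPKM in aged, 1.85, 1.67 and 1.16 FPKM in HFD and 0, 0.212 and 0.0273 FPKM in control libraries, the same order of groups without overlap. Its choice by r favours such an order, which is therefore a description only. Cdkn2a and Agmo passed the filter on low values through their aged and HFD libraries. Agmo averaged 1.6 FPKM in aged, 1.05 in HFD and 0.469 in control cells. Apoc1, an apolipoprotein, was the most abundant of the 8, at 352 FPKM in aged, 229 FPKM in HFD and 134 FPKM in control cells on average.

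The size of the differences was not alike within this set. Aged minus control was 2.03 for Cdkn2a, 1.39 for Apoc1, 1.27 for Plk2, a stress-regulated polo-like kinase, and 1.27 for Mcam, an adhesion molecule, against 0.24 for Reep5, a protein of the endoplasmic reticulum. HFD minus control was 1.24 for Cdkn2a, 0.75 for Apoc1, 0.75 for Plk2, 0.42 for Mcam and 0.16 for Reep5. On this scale of log2(FPKM + 1), which understates the change of low genes, no gene of the 8 reached the difference of Gpha2 in either comparison. By the ratio of mean FPKM, Cdkn2a changed more than Gpha2 in both, from a control level near 0. It averaged 3.41 FPKM in aged, 1.56 in HFD and 0.0799 in control cells. The genes most like Ppp2r5b were Wdtc1 (0.941), Cdr2l (0.930), Crebbp (0.930) and Kmt5b (0.925), with differences between -0.32 and 0.02 across the 3 comparisons.

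**Figure D5:**
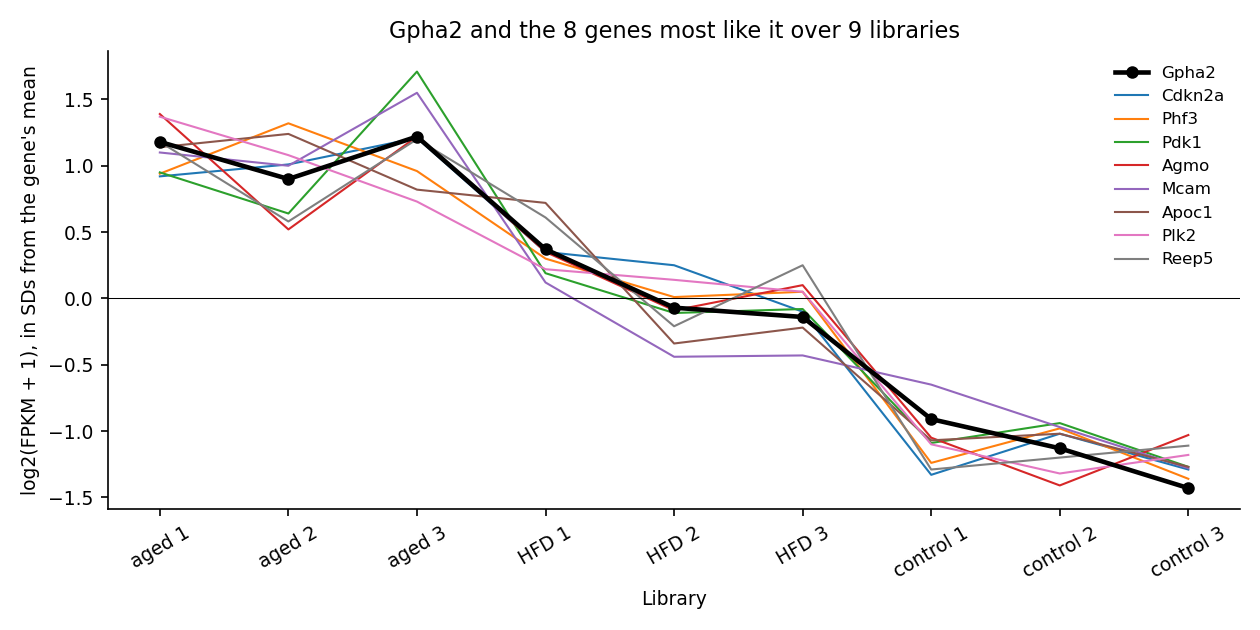
log2(FPKM + 1) of Gpha2 (black, points) and of the 8 genes with the highest Pearson's r to it, in SDs from the mean of each gene, in the 9 libraries by group. All 9 lines are above 0 in the aged and below 0 in the control libraries, since they were chosen for this likeness.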

How the data were processed

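The authors deposited 1 table of FPKM, with a column for each of the 9 libraries and 22399 genes, and every column was mapped to a sample by its name. Per the submitters' processing notes the tools were cutadapt, STAR 2.6.0c, HTSeq 0.11.2 and DESeq2 1.30.0 with the mm10 genome; which of them made the deposited FPKM, with which gene lengths and whether by strand is not given in the sources used here. GENCODE M21 on GRCm38 matched 22362 identifiers. Reads per gene were estimated as whole multiples of the value of a single read, FPKM times exon length: 97.5% to 98.2% of values up to 30 reads were whole within 0.02, so depth is an estimate.

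The test was limma 3.58.1 (R 4.3.3), two-sided, with lmFit and the trended eBayes, run on log2(FPKM + 1). Its 1 model had a mean per group and took the 10367 genes averaging 1 FPKM or more. Of the 4 genes described, 2 passed this filter; Gphb5 and Tshr did not. A gene counted as called when its Benjamini-Hochberg adjusted p, over all genes tested, was under 0.05. The fit was tested on simulated data. The members and lists were chosen with earlier results of these data known. Named genes were all genes within 100 kb of Gpha2, the 8 and 4 with the highest r to Gpha2 and Ppp2r5b, all members of the hormone, receptor, B56, scaffold, catalytic, kinase and limbal lists, and called members of the other lists, of which 1 is not reported here; the marker genes of other cell types and those outside this rule were named after their values were seen. Alternatives were a pseudocount of 0.1, no filter, quantile normalization, total FPKM scaling, only the 6 libraries compared, a robust setting, library weights, a GC correction (loess span 0.5), a replicate block, both of these, and each library left out. Applying them to the other lists was decided after seeing the data.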

Additional observations from a re-analysis of the deposited data

How the results depend on the processing

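The rise of Gpha2 in aged against HFD kept its direction and its call in all 19 other settings, which draw on the libraries that selected it. With a replicate block it was 1.24 (limma adjusted p = 0.00107), and with no filter on low values the adjusted p was 0.0264. The correlation of the deviations of samples with the same replicate number was -0.05 to 0.27, not above 0.1 in every pair, so the numbers were not taken as pairs. Replicates 1 and 3 correlated best with their own number in all 3 comparisons, a hint from the data, and replicate 2 in 0. With the block, calls over all genes came to 2061 in HFD against control, 1137 in aged against control and 987 in aged against HFD, more than without it in each. A pseudocount of 0.1 moved the difference of Gpha2 to 3.44 for aged minus control and to 2.04 for HFD minus control, because a smaller pseudocount weighs low values more. Without single libraries these were 2.51 to 2.82 and 1.24 to 1.57, and aged minus HFD was 1.13 to 1.43. Ppp2r5b was not called in any setting, and its sign was not fixed: HFD minus control was 0.15 with a GC correction and 0.15 with the replicate block and GC correction, and -0.09 to 0.03 without single libraries. Aged minus HFD was -0.21 to 0.01 and aged minus control -0.24 to -0.02 without single libraries. The causes of these changes were not tested. The number of genes called over the settings was 749 to 2388 in HFD against control (1764 as reported), 304 to 1254 in aged against control (804) and 381 to 1138 in aged against HFD (828), the fewest without control replicate 2, aged replicate 1 and HFD replicate 2 in that order, and the most with library weights, without aged replicate 3 and with library weights. Depth limits Gpha2 in control libraries, at 15 to 37 reads. For Gphb5 and Tshr, a level too low for these depths would also be listed at 0, as would a value that was not obtained.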
